A study of Mus musculus with 4 samples.

Results

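The 8 genes described here encode the receptors for interleukin-23 (IL-23) and interleukin-12 (IL-12), Il23r, Il12rb1 and Il12rb2, the Janus kinases Jak1, Jak2 and Tyk2, and the transcription factors Stat3 and Stat4. They were taken by name from 2 joint tables of expression values, and all 8 were found in both, among 15242 rows of the IL-17D knockout (KO) and WT table and 12546 rows of the CD93 table. The cells were type 3 innate lymphoid cells (ILC3s) from mouse small intestine at steady state, innate lymphocytes known for their output of IL-22 and IL-17. They had been sorted as live cells low in CD45, negative for CD3 and high in CD90.2. The first pair consisted of ILC3s of Il17d knockout mice and of wild-type mice. The second pair consisted of ILC3s that stained for CD93, a surface glycoprotein, and ILC3s that did not, both from wild-type mice, and these were sorted after 12 h of culture of the cell suspension without stimulation. Whether the KO and WT cells were cultured, the age and sex of the mice and the number pooled are not stated in the labels. Each of the 4 groups was 1 library, so no difference has a replicate check and no p-value is given.

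IL-23 and IL-12 are made by dendritic cells and macrophages and share the subunit p40. Their receptors share the chain IL-12Rβ1, encoded by Il12rb1, which pairs with IL-23R to bind IL-23 and with IL-12Rβ2 to bind IL-12. IL-12Rβ1 carries the kinase TYK2, and IL-23R and IL-12Rβ2 carry JAK2. IL-23R signals mainly through STAT3, which in ILC3s drives Il22, and IL-12Rβ2 signals mainly through STAT4, which drives Ifng in ILC1s, NK cells and T helper cells.

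The unit of a level is FPKM (fragments per kilobase of gene length, scaled to library size by the authors), so levels of different genes within a library can be compared per length. The totals behind this scaling, recovered from the steps between values, lay between 11712846 and 27002581. Differences are log2(FPKM + 1) of the first library minus that of the second, which understates differences at low levels. Ratios of FPKM carry a 95% exact (Clopper-Pearson) interval from recovered reads, which covers counting error only, as reads copied by PCR and carrying no molecular identifier are no independent counts of molecules. A gene counted as measured when 1 library of its pair reached an FPKM of 1, and as apart when the difference reached 1 in log2, which is 2-fold. The 2 tables use different sets of gene names, so levels were compared within a table. All 10 ILC3 markers of a fixed list were measured in both pairs, among them Il7r and Kit. The genotype label was not checked, since Il17d was not analysed here. Cd93 had 155.0 FPKM in CD93-positive and 79.9 in CD93-negative cells. Actb, a gene often used as a reference, differed by 0.98 in log2 between the same 2 libraries.

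Il23r and Il12rb2 are neighbours on chromosome 6, with 46743 bases between them and both on the minus strand (mm10, GENCODE M21). Il12rb2 (ENSMUSG00000018341.12) spans chr6:67291318-67376188 and Il23r (ENSMUSG00000049093.9) spans chr6:67422932-67491855. The RefSeq windows around their starts (GRCm38.p6, 250 bases before to 50 after, minus strand) are shown because these neighbours lay far apart in level in every library. The Il12rb2 window is chr6:67376139-67376438 and the Il23r window is chr6:67491806-67492105. Capitals mark matches to a STAT palindrome, TTCNNNGAA, which reads alike on both strands, or to the half-site of nuclear receptors, AGGTCA on either strand.
Il12rb2: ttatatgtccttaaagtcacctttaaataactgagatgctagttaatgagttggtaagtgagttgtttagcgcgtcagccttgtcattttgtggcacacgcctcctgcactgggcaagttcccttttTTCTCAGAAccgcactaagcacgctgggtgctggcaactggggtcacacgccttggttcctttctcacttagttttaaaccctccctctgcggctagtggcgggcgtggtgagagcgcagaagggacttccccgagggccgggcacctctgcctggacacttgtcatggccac
Il23r: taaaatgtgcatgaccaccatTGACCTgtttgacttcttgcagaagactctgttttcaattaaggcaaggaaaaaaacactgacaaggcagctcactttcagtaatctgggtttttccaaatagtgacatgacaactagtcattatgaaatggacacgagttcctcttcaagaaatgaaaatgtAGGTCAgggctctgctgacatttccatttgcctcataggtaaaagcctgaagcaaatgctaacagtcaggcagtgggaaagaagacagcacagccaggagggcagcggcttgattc
The Il12rb2 window held 1 match to TTCNNNGAA, which 8.30% of 32851 such windows of the mouse genome hold, and 0 to AGGTCA. The Il23r window held 0 matches to TTCNNNGAA and 2 to AGGTCA, 1 on each strand, a motif found in 16.3% of windows. The T-box half-site GGTGTGA, searched on both strands and held by 3.98% of windows, was in neither window. The matches do not overlap each other. GC content was 53.0% in the Il12rb2 window and 43.0% in the Il23r window.

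The other 6 genes lie on 6 other chromosomes. Il12rb1 (ENSMUSG00000000791.9) spans chr8:70808449-70821424 on the plus strand. Of the kinases, Jak1 (ENSMUSG00000028530.14) spans chr4:101152367-101265282 on the minus strand, Jak2 (ENSMUSG00000024789.13) chr19:29251828-29313080 on the plus strand and Tyk2 (ENSMUSG00000032175.11) chr9:21104068-21131243 on the minus strand. Stat3 (ENSMUSG00000004040.16) spans chr11:100885098-100939540 on the minus strand and Stat4 (ENSMUSG00000062939.11) chr1:51987148-52107189 on the plus strand. Exons of other genes overlap 40.04% of the exon bases of Il12rb2 (Serbp1, opposite strand), 26.7% of those of Stat4 (Gm28177, same strand) and 8.07% of those of Tyk2 (1700084C06Rik, opposite strand), so these values are less certain than those of the other members. For Stat3 (Stat5a) and Jak1 (Raver2) the overlap was 0.756% and 0.0553%. The labels do not state whether strand was used in counting.

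The first comparison asks how the receptors and signal transducers differ in ILC3s without IL-17D, a cytokine of the IL-17 family. Between KO and WT ILC3s, 0 of the 8 genes were 2-fold apart in either direction. Among all 12376 measured genes, 16.6% were higher in KO by 2-fold or more and 12.7% were lower by as much. The order of the 8 genes by FPKM was the same in both libraries, from Il23r down through Jak1, Jak2, Stat4, Stat3, Il12rb1 and Tyk2 to Il12rb2. The 8 genes went both ways, with 4 higher and 4 lower in KO and a median difference of -0.02 against 0.01 for all measured genes. Setting both libraries to a common sum gave a median of 0.17 for all genes and of 0.14 for the 8, and it put Il23r and Jak2 on the higher side too.

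**Figure D1:**
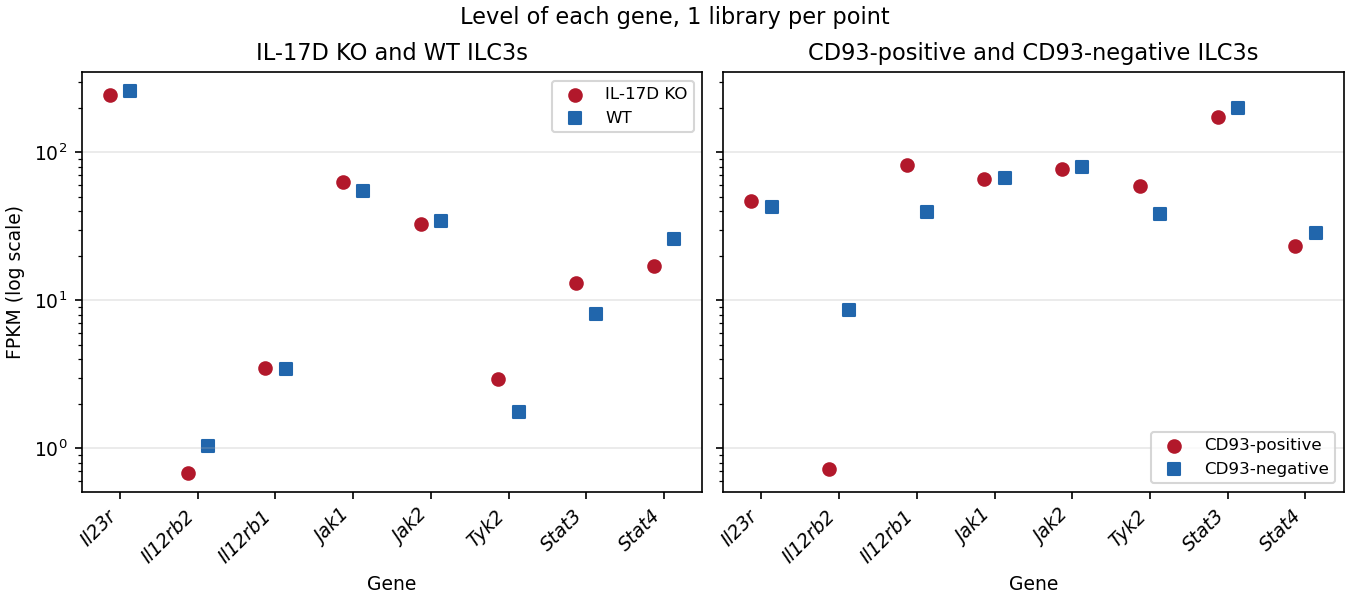
FPKM of the 8 genes on a log axis, IL-17D KO and WT libraries on the left and CD93-positive and CD93-negative libraries on the right, with 1 point per library. Il12rb2 is the lowest gene in all 4 libraries and the gene with the widest gap on the right (0.720 in CD93-positive and 8.58 in CD93-negative), while Jak1 and Jak2 nearly coincide there.

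Il23r, the chain specific to IL-23, was the highest of the 8 genes in this pair, with 243 FPKM in KO and 258 in WT ILC3s. It ranked 272nd in KO and 315th in WT among measured genes. The ratio was 0.943 (0.923 to 0.963), and its direction turned with a common sum, where the log2 difference was 0.09. Il12rb1, the shared chain, had 3.46 in KO and 3.43 in WT, from 384 and 367 reads, a ratio of 1.01 (0.874 to 1.17). Il23r was thus 70.2 times as high as its partner chain in KO and 75.3 times in WT. In the CD93-positive and CD93-negative libraries it was 0.574 and 1.08 times as high, so this gap differed by table. The reason was not tested. Il12rb2, the chain specific to IL-12, was at the floor of the measurement, with 0.683 FPKM from 70 reads in KO and 1.03 from 102 reads in WT. Its ratio of 0.663 had a wide interval, 0.482 to 0.908. The share of measured genes 2-fold apart in this pair depended on reads. It was 40.8% for genes with 100 to 1000 recovered reads over both libraries, the range of Il12rb1, Il12rb2 and Tyk2. It was 13.5% for 1000 to 10000 reads, the range of Jak2, Stat3 and Stat4, and 4.39% above 10000 reads, the range of Il23r and Jak1.

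Among the kinases, Jak1, which serves interferon, gp130 and common gamma chain receptors, had 62.9 FPKM in KO and 54.6 in WT, a ratio of 1.15 (1.12 to 1.18). Jak2, the partner of IL-23R and IL-12Rβ2, had 32.8 in KO and 34.2 in WT, a ratio of 0.960 (0.920 to 1.00). The log2 difference of Jak2 was -0.06 as deposited and 0.11 with a common sum. Tyk2, the partner of IL-12Rβ1, had 2.96 from 548 reads in KO and 1.76 from 316 reads in WT. Its ratio of 1.68 (1.46 to 1.93) was the largest of the 8 in this pair, and 54.1% of measured genes had a difference in log2 larger than its 0.52.

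The STAT genes lay on opposite sides. Stat3, which carries the IL-23 signal, had 13.1 FPKM in KO and 8.02 in WT, a ratio of 1.63 (1.54 to 1.73). Stat4, which carries the IL-12 signal, had 17.03 in KO, against 25.8 in WT, and was 1.52-fold lower (1.43 to 1.61). Both stayed under 2-fold and kept their sign under every scaling and pseudocount tried. The Stat3 level was 0.769 of the Stat4 level in KO and 0.310 in WT. This ratio within a library does not depend on how libraries are scaled, and it was 2.48 times as high in KO (2.28 to 2.69). Stat4 was above Stat3 in both libraries. In the CD93-positive and CD93-negative libraries Stat3 was 7.44 and 7.05 times the level of Stat4, and the reason was not tested.

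**Figure D2:**
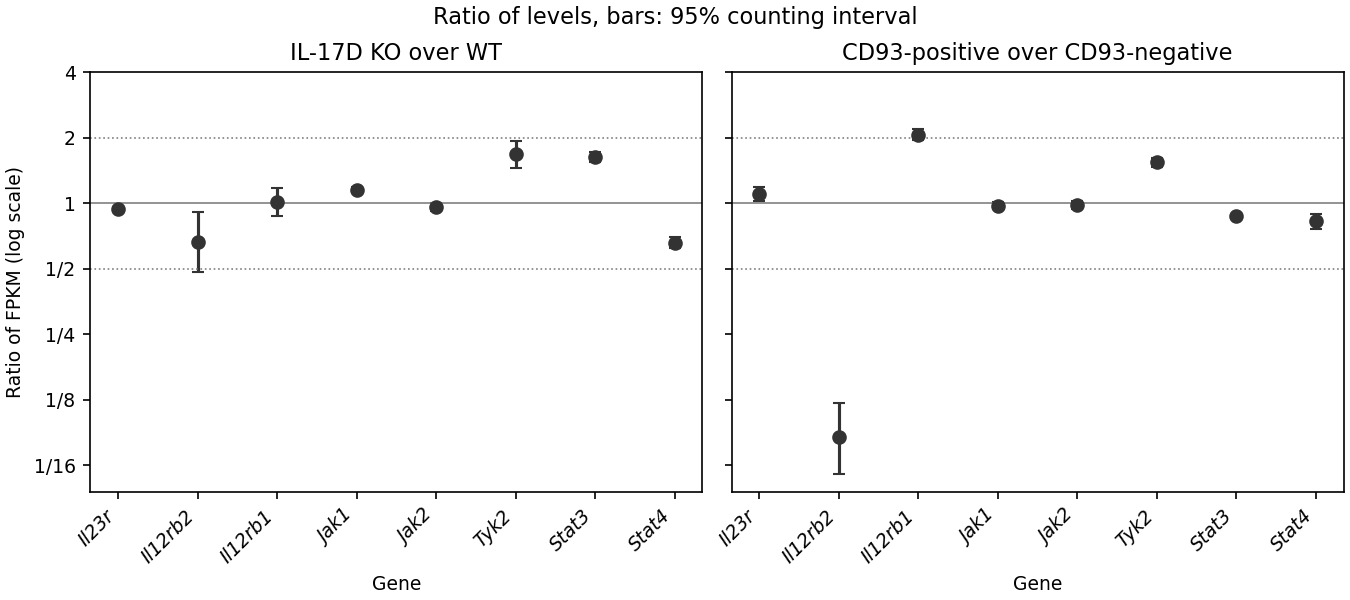
Ratio of FPKM on a log axis for each of the 8 genes, KO over WT on the left and CD93-positive over CD93-negative on the right, with 1 library per group. Bars are 95% counting intervals and dotted lines mark 2-fold in each direction. All points lie inside 2-fold on the left, and Il12rb2 at 0.0839 and Il12rb1 at 2.07 lie outside it on the right.

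The second comparison asks how the same genes differ between ILC3s with and without CD93. Il12rb2 was far lower and Il12rb1 about 2-fold higher in CD93-positive cells, and the other 6 genes were less than 2-fold apart. By the 2-fold limit 1 of the 8 genes was higher and 1 lower, where 2.49% of all 10117 measured genes were higher and 1.94% lower. Over all genes 252 were higher and 196 lower as deposited, and 173 and 296 when both libraries were brought to the mean of their sums. A common sum on the scale of TPM, which also raises values relative to the pseudocount and the floor, gave 290 higher and 732 lower. The median difference of the 8 genes was -0.03 against 0.04 for all measured genes, and with a common sum these medians were -0.21 and -0.15.

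Il12rb2 had 0.720 FPKM from 32 reads in CD93-positive and 8.58 from 384 reads in CD93-negative cells. It was 11.9-fold lower in CD93-positive cells (8.30 to 17.7), a log2 difference of -2.48, and 0.138% of measured genes had a larger difference in either direction. The log2 difference was -1.25 with a pseudocount of 5 and -3.40 with a pseudocount of 0.1, so its size depends on the pseudocount. Serbp1, whose exons overlap those of Il12rb2, had 15.4 in CD93-positive and 13.5 in CD93-negative cells.

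Il12rb1 had 82.0 FPKM in CD93-positive and 39.6 in CD93-negative cells, a ratio of 2.07 (1.96 to 2.19). Its log2 difference of 1.03 stood at the limit, and it was 0.87 with a common sum and 0.99 when the median ratio of all genes was set to 1, both below 2-fold. Il23r had 47.1 in CD93-positive and 42.7 in CD93-negative cells, a ratio of 1.10 (1.02 to 1.19), and its log2 difference of 0.14 turned to -0.03 with a common sum. The shared chain was thus above Il23r in CD93-positive cells and slightly below it in CD93-negative cells. The level of Il23r was 0.574 of that of Il12rb1 in CD93-positive and 1.08 of it in CD93-negative cells.

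The balance between the receptor chains within a library differed between CD93-positive and CD93-negative cells. Il23r was 65.4 times as high as Il12rb2 in CD93-positive and 4.97 times in CD93-negative cells. These ratios differed by 13.2 times (9.07 to 19.7, exact conditional interval from reads), whatever the scaling of the libraries. Il12rb1 was 114 times as high as Il12rb2 in CD93-positive and 4.62 times in CD93-negative cells, ratios that differed by 24.7 times (17.1 to 36.7). In the other pair the ratio of Il23r to Il12rb2 was 356 in KO and 250 in WT, which differed by 1.42 times (1.04 to 1.96), with few reads of Il12rb2 behind it.

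**Figure D3:**
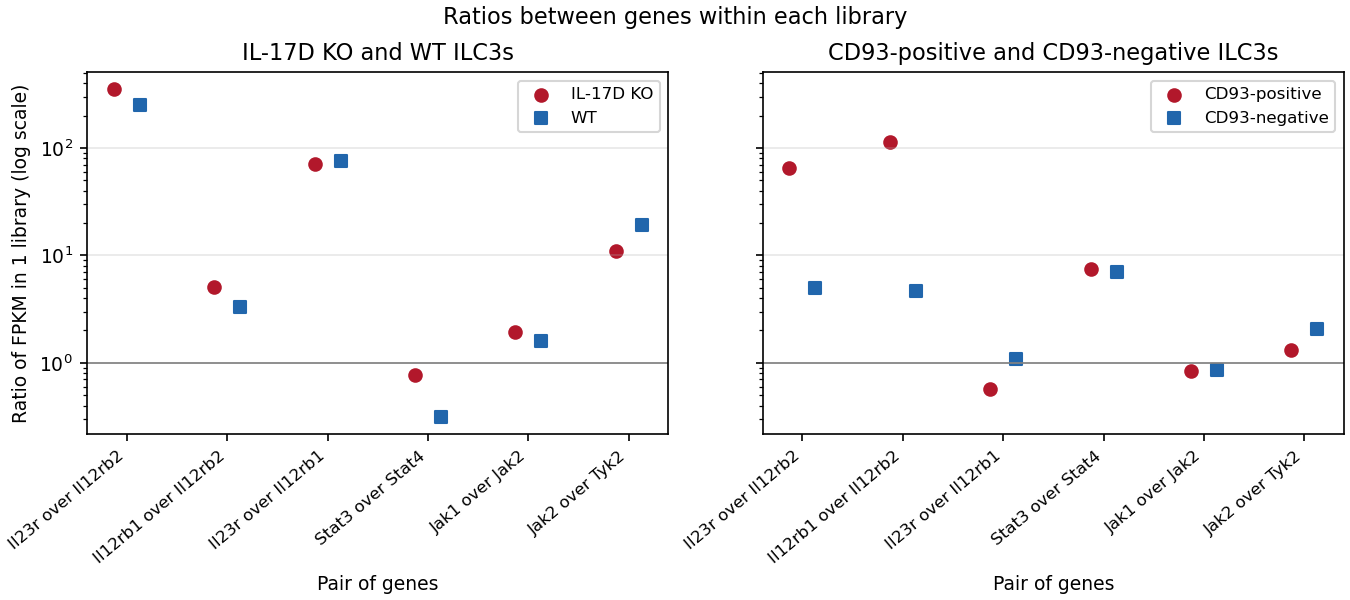
Ratio of FPKM between pairs of the 8 genes within each library on a log axis, with 1 point per library, KO and WT on the left and CD93-positive and CD93-negative on the right. The ratio of Il23r to Il12rb2 is 65.4 in the CD93-positive and 4.97 in the CD93-negative library, while Stat3 over Stat4 is 7.44 and 7.05 in the same libraries.

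Tyk2 was the kinase that differed most, with 59.1 FPKM in CD93-positive and 38.4 in CD93-negative cells. Its ratio was 1.54 (1.47 to 1.61), in the same direction as that of Il12rb1, the chain it binds. Jak2 had 77.5 in CD93-positive and 78.9 in CD93-negative cells, a ratio of 0.982 (0.942 to 1.02). Jak1 had 65.4 in CD93-positive and 67.3 in CD93-negative cells, a ratio of 0.973 (0.937 to 1.01). For both, the interval holds 1 on the deposited scale, and with a common sum the log2 differences were -0.20 for Jak2 and -0.21 for Jak1, where the median of all genes was -0.15. Jak2 was 1.31 times as high as Tyk2 in CD93-positive and 2.06 times in CD93-negative cells.

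Stat3 was the highest of the 8 genes in this pair, with 173.8 FPKM in CD93-positive and 199.8 in CD93-negative cells. It was 1.15-fold lower in CD93-positive cells (1.13 to 1.17). Stat4 had 23.4 in CD93-positive and 28.3 in CD93-negative cells, 1.21-fold lower (1.12 to 1.32). The Stat3 level was 7.44 times that of Stat4 in CD93-positive and 7.05 times in CD93-negative cells, and the interval of the difference between these ratios, 0.969 to 1.15, holds 1. Neither STAT gene was 2-fold apart, while Il12rb2, the receptor chain that acts through STAT4, was 11.9-fold lower.

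Il12rb2 is expressed by NK cells, ILC1s and activated T cells, and markers of these cells were compared in the same 2 libraries. Of 10 measured markers of NK cells and ILC1s, 6 were at least 2-fold lower and 0 higher in CD93-positive cells. Among all measured genes in this pair 1.94% were at least 2-fold lower and 2.49% higher. Summed over the 11 tabulated NK cell and ILC1 markers, FPKM was 505 in CD93-positive and 999 in CD93-negative cells, and none was at 0. Most of both sums came from Gzmb, with 396 in CD93-positive and 708 in CD93-negative cells. Tbx21, which encodes T-bet, had 7.96 and 25.4, Klrb1c, which encodes NK1.1, had 0.721 and 15.3, and Klrd1 had 1.40 and 11.6 in CD93-positive and CD93-negative cells. Of 3 measured T cell markers, 2 were at least 2-fold lower and 0 higher, with Cd3g at 1.12 in CD93-positive and 4.67 in CD93-negative cells. The 6 tabulated T cell markers summed to 2.74 in CD93-positive and 10.6 in CD93-negative cells. Under the floor of 1, Themis had 0 in CD93-positive and 0.661 in CD93-negative cells, and Cd28 had 0.0418 and 0.208. Cd5, also under the floor, went the other way, with 0.364 in CD93-positive and 0.155 in CD93-negative cells. The ILC3 markers summed to 9327 in CD93-positive and 2587 in CD93-negative cells, most of it from Il22, with 2 of 10 at least 2-fold higher and 0 lower. Their part in the difference of Il12rb2 was not tested. In these bulk samples, fewer cells of a type and less RNA per cell cannot be told apart.

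In the KO and WT pair the median log2 difference was 0.58 for NK cell and ILC1 markers and 1.02 for T cell markers. Il12rb2 was 1.51-fold lower in KO (1.10 to 2.07). Among all measured genes in this pair 16.6% were at least 2-fold higher and 12.7% lower. Of 11 measured NK cell and ILC1 markers, 4 were at least 2-fold higher and 0 lower in KO, with a summed FPKM of 1256 in KO and 878 in WT. Nkg7 made up most of both sums, with 881 in KO and 587 in WT. Tbx21, at 4.52 in KO and 7.80 in WT, and Klrk1, at 58.0 in KO and 80.1 in WT, were lower in KO. Ncr1, Gzmb and Cxcr3 differed by 0.04, 0.02 and 0.10 in log2. Of 11 T cell markers, 6 were higher and 0 lower, with sums of 1282 in KO and 889 in WT. Digestive enzyme genes of the exocrine pancreas, all 7 of them higher, summed to 1017 in KO and 0.279 in WT, with 5 at 0 in WT. They summed to 317 in CD93-positive and 498 in CD93-negative cells, with 0 of 6 measured 2-fold apart. Among measured markers, 4 of 5 of intestinal epithelium, 3 of 6 of ILC2s and 2 of 4 of B and plasma cells were 2-fold higher in KO and 0 lower, while 2 of 5 myeloid markers were higher and 2 lower. ILC3 markers summed to 12745 in KO and 17033 in WT, with 0 of 10 at least 2-fold apart. For CD93-positive cells, 1 of 4 epithelial and 1 of 7 ILC2 markers were 2-fold lower, and 0 of 4 myeloid markers were 2-fold apart. The part of these in the differences of the 8 genes was not tested.

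Beyond the 8 genes, a list of 68 genes of the same pathways was compared in 6 groups by role. In the KO and WT pair, 7 of 56 measured genes passed 2-fold upwards and 1 downwards, 14.3% in all, where 29.3% of all measured genes were 2-fold apart. In the CD93 pair, 8 of 61 were higher and 4 lower in CD93-positive cells, 19.7% in all, against 4.43% of all measured genes.

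Of the ligand genes, 2 were measured in the KO and WT pair, with 1 higher and 1 lower in KO, and 3 in the CD93 pair, with 0 of them 2-fold apart. Il12a and Il12b, which encode the chains of IL-12, were not analysed here, nor was Il23a in the KO and WT pair. Il23a, the chain specific to IL-23, had 0.456 FPKM from 12 reads in CD93-positive and 0.340 from 9 reads in CD93-negative cells. Il6, a cytokine that acts through STAT3, had 10.2 in CD93-positive and 8.10 in CD93-negative cells. In the other pair it had 0 reads in KO, against 105 in WT, and was at least 36.2-fold lower, counted against 3 reads in KO. Such bounds cover counting error only. Values of 0 were common in that pair, with 1276 rows in KO and 1183 in WT, against 57 in CD93-positive and 2 in CD93-negative cells. Ebi3, a chain shared by IL-27 and IL-35, had 8.32 in KO and 3.64 in WT, and 3.03 in CD93-positive and 1.62 in CD93-negative cells.

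Among other receptors that use these kinases, 2 of 8 measured genes passed 2-fold upwards and 0 downwards in KO, with a group median of 0.15. Il21r, the IL-21 receptor gene, was 16.2-fold higher (12.6 to 21.2), at 12.0 FPKM in KO and 0.738 in WT. Lifr, the receptor of leukaemia inhibitory factor, had 1115 reads in KO, against 0 in WT. Counted against 3 reads in WT, it was at least 359-fold higher, a bound that covers counting error only. In the CD93 pair, 1 of 9 was higher and 1 lower in log2(FPKM + 1), with a median of -0.09. Il21r, not among those counted, was 2.41-fold lower by FPKM (1.61 to 3.69) and -0.74 in log2(FPKM + 1). Ifngr2, the signalling chain of the interferon-gamma receptor, was 3.38-fold higher (2.88 to 3.98), with 15.1 in CD93-positive and 4.46 in CD93-negative cells. Il10ra, the IL-10 receptor gene, was 4.91-fold lower (2.98 to 8.52), with 0.464 in CD93-positive and 2.28 in CD93-negative cells. Ifngr1, the highest of the group, had 528 in CD93-positive and 651 in CD93-negative cells, and 949.5 in KO and 835 in WT.

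None of the other JAK and STAT genes that were measured was 2-fold apart, 0 of 5 in the KO and WT pair and 0 of 6 in the CD93 pair. Their median for CD93-positive minus CD93-negative was -0.38, and 5 of 6 were lower in CD93-positive cells. Stat5b, which carries signals of IL-2 and IL-7, was the farthest, with 61.8 FPKM in CD93-positive and 105 in CD93-negative cells, 1.70-fold lower (1.64 to 1.77). Stat5a, the neighbour of Stat3 and Stat5b on chromosome 11, had 25.5 in CD93-positive and 36.9 in CD93-negative cells. In KO, Stat5a was 1.89-fold lower (1.81 to 1.98) and Stat5b 1.66-fold higher (1.54 to 1.79), with 15.4 and 12.8 in KO against 29.1 and 7.70 in WT. The median of the 5 measured genes in that pair was -0.03, and it was 0.31 over 6 genes with no floor on FPKM, where Stat2 enters. Stat2 had 0.944 FPKM from 151 reads in KO, just under the floor of 1, and 0 reads in WT. Counted against 3 reads in WT, it was at least 48.6-fold higher in KO, a bound that covers counting error only. Jak3, the kinase of the common gamma chain, had 1.86 in KO and 3.24 in WT, and 47.0 in CD93-positive and 56.4 in CD93-negative cells.

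Among negative regulators, 2 of 12 measured genes passed 2-fold upwards in KO, a share near the 16.6% of all measured genes, and 0 downwards, with a median of 0.37. Ptpn6, which encodes the phosphatase SHP-1, had a ratio of 3.001 (2.78 to 3.24), at 37.3 FPKM in KO and 12.4 in WT. Pias4, an inhibitor of STAT proteins, had 145 reads in KO and 3 in WT. In the CD93 pair 0 of 13 were 2-fold apart in log2(FPKM + 1), with a median of 0.06 that turned to -0.11 with a common sum. Socs3, which STAT3 induces and which blocks JAK2, had 47.1 in CD93-positive and 35.6 in CD93-negative cells, a ratio of 1.32 (1.23 to 1.43). Socs2, another inhibitor of cytokine signalling and the farthest of the group, had 5.44 in CD93-positive and 11.0 in CD93-negative cells, 2.03-fold lower by FPKM (1.84 to 2.24) and -0.90 in log2(FPKM + 1). In the other pair Socs3 had 9.97 in KO, against 14.2 in WT, and was 1.42-fold lower (1.30 to 1.56).

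In the CD93 pair the genes linked to STAT3 had a positive median and those linked to STAT4 a negative one, and this contrast was not tested. Of 16 genes of the IL-23 response linked to STAT3, 6 passed 2-fold upwards in CD93-positive cells and 0 downwards. Their median was 0.67 (0.51 with a common sum and 0.50 with both libraries at the mean of their sums). Il22 was 4.79-fold higher (4.72 to 4.86), at 7934 FPKM in CD93-positive and 1655 in CD93-negative cells. Il17f was 7.19-fold higher (6.06 to 8.58) and Il17a 2.36-fold higher (1.68 to 3.35), Il17a from 117 reads in CD93-positive and 50 in CD93-negative cells. Ccr6, a chemokine receptor gene of lymphoid tissue inducer cells, was 8.30-fold higher (6.70 to 10.4), and Bcl2, which encodes a survival protein, 3.54-fold higher (3.25 to 3.85). Il1r1, the IL-1 receptor gene, had 47.4 in CD93-positive and 23.4 in CD93-negative cells, just under the limit with a log2 difference of 0.99. Pim1, a kinase gene induced by STAT proteins, was 1.39-fold lower (1.35 to 1.43), with 204 in CD93-positive and 284 in CD93-negative cells.

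Of 14 measured genes of the IL-12 response linked to STAT4, 1 passed 2-fold upwards and 3 downwards in CD93-positive cells. Their median was -0.34 (-0.43 over 15 genes with a common sum and -0.49 with both libraries at the mean of their sums). Furin, a protease gene induced by IL-12 in T cells, was 2.24-fold higher (2.20 to 2.28), with 326 in CD93-positive and 145.5 in CD93-negative cells. Tbx21, Cxcr3 and Il18r1 were the lower ones. Cxcr3, a chemokine receptor gene, had 21.8 in CD93-positive and 60.9 in CD93-negative cells, 2.80-fold lower (2.51 to 3.13). Il18r1, a receptor chain of IL-18, was 2.70-fold lower (2.60 to 2.80), with 66.5 in CD93-positive and 179 in CD93-negative cells. Ifng, the main product of IL-12 signalling, had 5.54 in CD93-positive and 5.83 in CD93-negative cells, 1.05-fold lower (0.772 to 1.44). Of the genes in this group, Tbx21, Cxcr3, Gzmb and Prf1 are also on the list of NK cell and ILC1 markers.

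In KO, 2 of 15 measured STAT3-linked genes passed 2-fold upwards, 13.3% against 16.6% of all measured genes, and 0 downwards. Their median of -0.09 turned to 0.07 when both libraries were brought to the mean of their sums. Myc was 2.36-fold higher (2.18 to 2.56), at 29.1 FPKM in KO and 12.3 in WT. Prdm1, which encodes BLIMP-1, was 8.92-fold higher (6.40 to 12.8), with 2.39 in KO and 0.268 in WT. Irf4, not among those counted, was 2.75-fold higher by FPKM (2.08 to 3.66) and 0.69 in log2(FPKM + 1). Of 14 STAT4-linked genes, 0 were 2-fold apart in log2(FPKM + 1), with a median of 0.08. Prf1 was 2.09-fold higher by FPKM (1.64 to 2.67) and 0.72 in log2(FPKM + 1). Ifng had 40.7 in KO and 28.8 in WT, a ratio of 1.41 (1.30 to 1.54), and Tbx21 had 4.52 in KO, against 7.80 in WT, and was 1.72-fold lower (1.49 to 1.99).

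**Figure D4:**
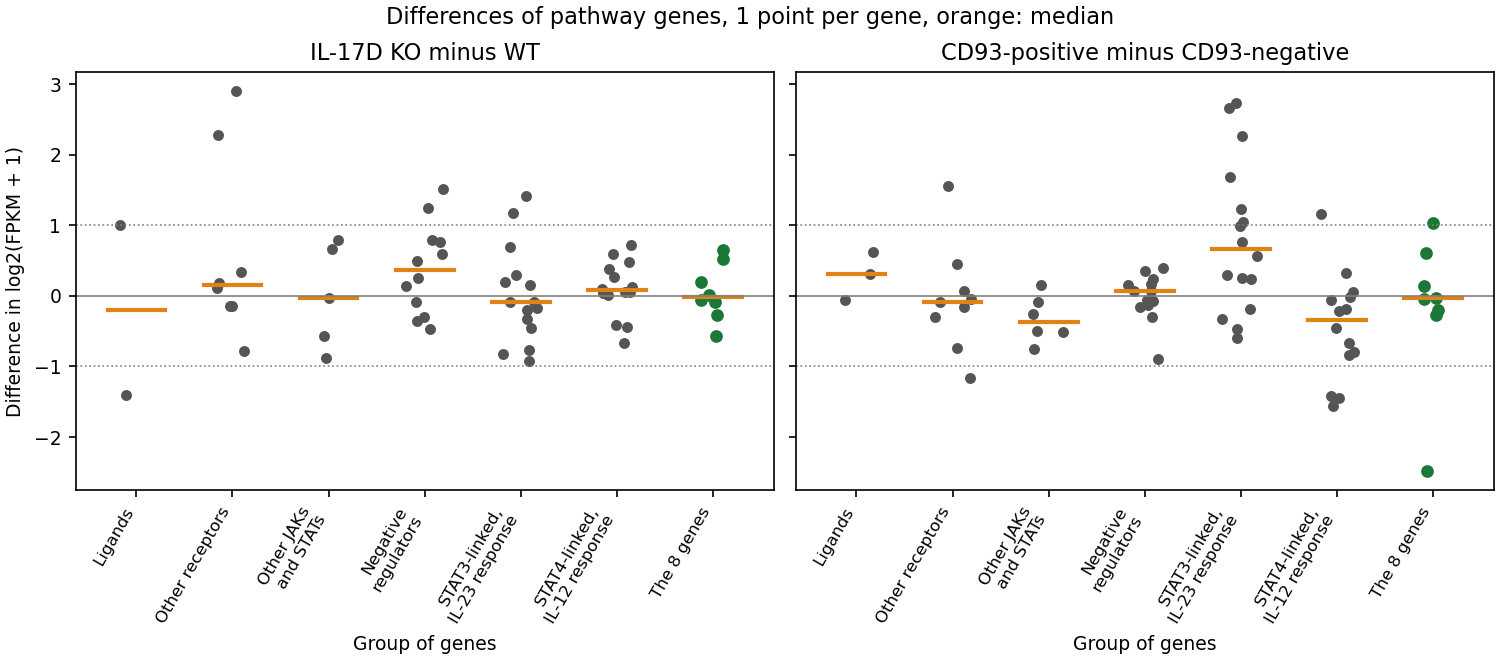
Difference in log2(FPKM + 1) of pathway genes by role and of the 8 genes, KO minus WT on the left and CD93-positive minus CD93-negative on the right, with 1 point per measured gene and orange lines at medians. Dotted lines mark 2-fold. On the right the STAT3-linked genes have a median of 0.67 and the STAT4-linked genes one of -0.34, and Il12rb2 is the point at -2.48.

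The genes most like Il23r and Il12rb2 were sought by the distance between their 2 log2 differences, KO minus WT and CD93-positive minus CD93-negative, among 3900 genes named in both tables and drawn from the 4 libraries. For Il12rb2 the nearest was Klri1, a killer cell lectin-like receptor gene, at a distance of 0.60, with 1.12 in CD93-positive and 9.92 in CD93-negative cells. Ms4a6b followed at 0.69 and Dgka, a diacylglycerol kinase gene, at 0.74. All 3 were higher in KO than in WT, unlike Il12rb2. For Il23r the nearest were Anapc11, a subunit of the anaphase-promoting complex (0.0089), Mrps24, a mitochondrial ribosomal protein (0.013), and Ptp4a2, a phosphatase (0.014), and 72 genes lay within 0.1.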

How the data were processed

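Per the labels, RNA was extracted with Trizol and read on a BGISEQ-500 instrument. The authors deposited FPKM values, 1 library per group, in a joint table for each pair. Bowtie2, featureCounts, Subread, edgeR and DESeq2 and the build mm10 are named per the submitters' processing notes, with no order or settings. Of the names, 11071 of 15242 in the KO and WT table and 12399 of 12546 in the CD93 table were in GENCODE M21, and 3591 against 0 were clone names that begin with RP.

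FPKM times union exon length in GENCODE M21 gave whole reads, within 0.02, for 91.9% to 98.2% of values above 0 with a length, and for all 8 genes in every library. The recovery step was also run on data simulated with these same lengths, which cannot show whether the authors used them. Each library's own file held the same values as the joint table.

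With 1 library per group no test was run. Of the 8 genes, 7 had a RefSeq promoter window. The genes, the pathway list and the markers were chosen with earlier results of these data known. Named genes are the 8, list members at least 2-fold apart, up to 4 of the highest per role group, and 3 genes nearest to Il23r and to Il12rb2. Some list members in between were added after their values were seen, and some list members are not reported here by name. Other pseudocounts, filters, scalings and fold limits were tried. Python 3.11.15, pandas 2.3.3 and scipy 1.17.1 were used.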

Additional observations from a re-analysis of the deposited data

How the results depend on the processing

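No paired analysis was possible because each group had 1 library. With 1 library per group, differences compare libraries, and depth limits Il12rb2 (32 to 384 reads) most. Of the 16 differences of the 8 genes, 13 kept their sign under the 5 alternative pseudocounts and scalings, 1 of which (each library brought to the mean of the 2 sums) was chosen after seeing the data. Il23r turned in both pairs and Jak2 in the KO pair.

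The count of the 8 genes past 2-fold upwards in CD93-positive cells, 1 as reported, was 0 with a pseudocount of 5, with each of the 3 other scalings and at 3-fold, and 2 at 1.5-fold. The count of lower ones stayed at 1 under every alternative. In KO, 1 of the 8 was higher at 1.5-fold.

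For the pathway list, KO counts of higher and lower genes, 7 and 1 as reported, were 2 and 0 with a pseudocount of 5, 4 and 0 with an FPKM of at least 5, 15 and 7 at 1.5-fold, and 2 and 0 at 3-fold. In the CD93 pair, 4 lower genes as reported became 7 with a pseudocount of 0.1, 8 with a common sum, 11 at 1.5-fold and 0 at 3-fold, and 8 higher ones became 4 at 3-fold.

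For all measured genes, KO counts of 2058 higher and 1569 lower were 499 and 322 with a pseudocount of 5, 908 and 611 with an FPKM of at least 5, 3281 and 2838 at 1.5-fold, and 920 and 636 at 3-fold. CD93 counts of 252 higher and 196 lower were 391 and 392 with a pseudocount of 0.1, 109 and 60 with a pseudocount of 5, 771 and 700 at 1.5-fold, and 73 and 37 at 3-fold. Lower genes alone became 127 with an FPKM of at least 5, 732 with a common sum and 296 with the mean of the sums. The share of higher genes among those apart was 56.2% as deposited, 28.4% with a common sum and 36.9% with the mean of the sums.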
